A study of Mus musculus with 10 samples.

Results

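Mitochondria fuse, divide, travel along the cytoskeleton and exchange metabolites through a small set of membrane proteins, and 10 of the genes that encode them were examined in muscle with and without desmin. They were the outer membrane fusion genes Mfn1 and Mfn2, the inner membrane fusion gene Opa1, the fission genes Dnm1l, Fis1 and Mff, the transport genes Rhot1 and Rhot2, and the channel genes Vdac1 and Vdac2. The genes were taken by name from a table of 54232 mouse genes, and all 10 were found and passed the limit on expression. By its labels, RNA came from the gastrocnemius, a calf muscle of mainly fast fibers. The labels name 5 homozygous desmin knock-out mice (Des -/-) and 5 wild-type mice (Des wt/wt). Their age of 3 months is given in the paper's methods. Both genotypes carried the strain label B6J.129Sv-Destm1Cba/Cscl, the wild-type mice were littermates, and no mouse received a treatment. The knock-out is present in every cell from the germline onward, so adaptation over the whole life of the mouse is part of the comparison. The paper elsewhere names the gastrocnemius together with the plantaris, a neighbouring calf muscle, as the source, so the samples may hold both. The methods speak of RNA pooled within a genotype, but the table holds a separate column for each of the 10 mice, and each was taken as 1 sample. If RNA was in fact pooled before the libraries were made, the p-values measure technical spread only.

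Desmin is the main intermediate filament protein of muscle, and mitochondria are among the organelles held in position by its network. Fusion of the outer membrane is carried out by the mitofusins and that of the inner membrane by OPA1, whereas division needs the dynamin-related GTPase DRP1, the product of Dnm1l, which is recruited to the outer membrane by adaptors such as MFF and FIS1. The Miro GTPases, encoded by Rhot1 and Rhot2, connect mitochondria with motor proteins. VDACs are the pores of the outer membrane through which ATP, ADP and other metabolites pass, and they have been described as partners of the filament system that holds mitochondria in place. The comparison therefore asks whether transcripts of this machinery were altered where a main anchor of mitochondria was missing.

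All values are regularized log (rlog) values on a log2 scale, which the authors computed from read counts with DESeq2. The transformation adjusts for sequencing depth and shrinks noisy genes to their own average, so small changes may be understated, and the depth of the libraries is unknown. A difference of 1 is a 2-fold change on this scale. Des (chromosome 1, 75360329 to 75368579, GRCm38) lay between 11.76 and 11.89 in knock-out and between 16.10 and 17.74 in wild-type mice, and thus each library carried the level of its label. Wild-type mouse 3 stood apart. The sum of its unlogged values was 1.484 times the median over mice, against 0.9488 to 1.061 in the others, and its values correlated with those of the other wild-type mice at a mean of 0.982, compared with 0.989 to 0.991 for the other wild-type and 0.996 to 0.997 for the knock-out mice. Values without this mouse are added for named genes and ratios where its removal changed a call or moved the difference by over 1.5 times. Markers of skeletal muscle fibers, such as Ckm, were abundant in all 10 mice. The sum of the 7 markers on the log2 scale was 21.57 to 21.73 in knock-out and 21.72 to 22.79 in wild-type mice.

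None of the 10 genes differed between the genotypes at an adjusted p under 0.05 (limma over 14289 tested genes), whereas 13.7% of all tested genes did, 7.7% being higher and 5.99% lower in knock-out muscle. Likewise, 0 of the 10 had an unadjusted limma p under 0.05, against 27.6% of all tested genes, and 0 passed in exact permutation tests of the single genes, of which the lowest p was 0.111. The smallest p that 5 against 5 mice allow in this test is 0.00794. No gene had genotypes that did not overlap, while 14.4% of tested genes had. Means were higher in knock-out muscle for 3 genes and lower for 7, but this split depended on the scaling, with 1 and 9 after median centring and 5 and 5 after quantile normalization. The split was 4 and 6 without wild-type mouse 3. The median difference of the 10 genes was -0.078 (-0.034 without wild-type mouse 3), beside -0.003 for all tested genes. Regardless of sign, it was 0.108 for the 10 genes and 0.173 for all tested genes. Without wild-type mouse 3, none of the 10 passed either, against 17.5% of all tested genes.

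**Figure D1:**
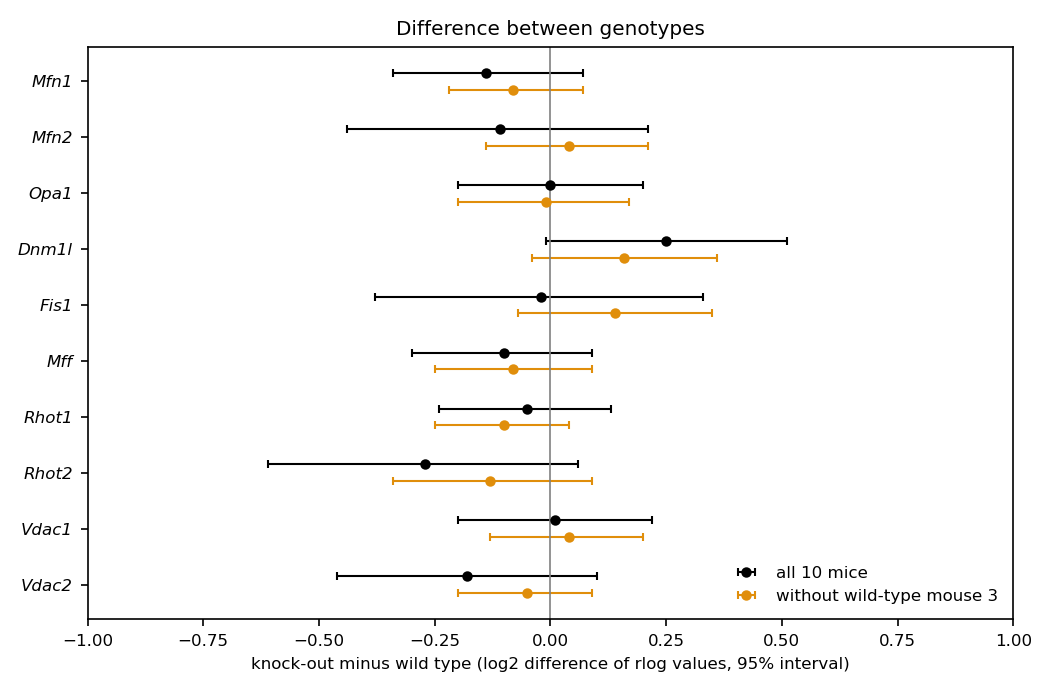
Difference between desmin knock-out and wild-type muscle for each of the 10 genes. The x axis gives the log2 difference of the rlog values, points are limma estimates, bars are 95% intervals, black is the fit of all 10 mice and orange the fit without wild-type mouse 3. Each interval contains 0, and with all mice they reach from -0.61 at the lowest to 0.51 at the highest.

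The standard errors were between 0.09 and 0.16, and the 95% intervals of all 10 genes lay between -0.61 and 0.51. A difference of 1, which is 2-fold on this scale, was therefore outside the interval of every gene. Smaller differences, from -0.61 to 0.51, lay inside the interval of at least 1 gene. All 10 genes were abundant, and even Rhot1, the last of them by its level per exon length, exceeded 73.9% of tested genes on that scale.

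The fusion genes were close to equal in both genotypes. Mfn1 (ENSMUSG00000027668, chromosome 3, 32529465 to 32579239) encodes mitofusin 1. Its values were 12.80, 12.89, 12.96, 12.82 and 12.92 in the 5 knock-out mice and 12.88, 13.09, 13.25, 12.91 and 12.92 in the 5 wild-type mice. The ranges overlapped, 2 knock-out mice lying below all wild-type mice, and the log2 difference was -0.14 (limma, SE 0.09, adjusted p = 0.377), and -0.08 without wild-type mouse 3. Mfn2 (ENSMUSG00000029020, chromosome 4, 147873599 to 147904704) encodes mitofusin 2, which besides fusion is known for contacts between mitochondria and the endoplasmic reticulum. It had 14.28, 14.33, 14.28, 14.05 and 14.13 in knock-out and 14.14, 14.32, 14.93, 14.15 and 14.09 in wild-type mice. Wild-type mouse 3 was the highest of all mice, and the other 4 wild-type values, from 14.09 to 14.32, lay among the knock-out values. The log2 difference was -0.11 (limma, SE 0.15, adjusted p = 0.664) and turned to 0.04 without this mouse.

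Opa1 (ENSMUSG00000038084, chromosome 16, 29579334 to 29654884) encodes the GTPase that fuses inner membranes and shapes cristae. Knock-out mice had 12.14, 12.03, 12.14, 12.04 and 12.18, and wild-type mice 12.20, 12.30, 12.06, 11.85 and 12.12. The means were 12.11 ± 0.06 (SD, n = 5) and 12.11 ± 0.17 (SD, n = 5), and the 95% interval of the difference ran from -0.20 to 0.20 (limma). Leaving out wild-type mouse 3 gave a difference of -0.01. The knock-out values all fell inside the wild-type range.

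Among the fission genes, Dnm1l had the smallest p of the 10 genes without passing. Dnm1l (ENSMUSG00000022789, chromosome 16, 16312230 to 16358959) showed 11.72, 11.68, 11.70, 11.65 and 11.77 in knock-out mice. In wild-type mice it showed 11.69, 11.74, 11.10, 11.25 and 11.49. The knock-out mice were tightly grouped at the upper end, level with wild-type mice 1 and 2, while wild-type mice 3 and 4 were lowest. The log2 difference was 0.25 (limma, SE 0.12, 95% interval -0.01 to 0.51, adjusted p = 0.193), and 0.16 without wild-type mouse 3.

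Fis1 and Mff encode outer membrane proteins that bind DRP1, MFF being regarded as a main receptor in mammals. Fis1 (ENSMUSG00000019054, chromosome 5, 136953275 to 136966234) had 12.23, 12.48, 12.42, 12.34 and 12.34 in knock-out and 12.13, 12.10, 13.04, 12.57 and 12.10 in wild-type mice. Here the knock-out mice lay in the gap between 3 low wild-type mice and the 2 high wild-type mice 3 and 4. The log2 difference of -0.02 (limma, SE 0.16, adjusted p = 0.941) became 0.14 without wild-type mouse 3. Mff (ENSMUSG00000026150, chromosome 1, 82724890 to 82752394) had 12.23, 12.18, 12.24, 12.41 and 12.43 in knock-out and 12.49, 12.44, 12.48, 12.21 and 12.37 in wild-type mice. In each genotype some mice were near 12.2 and others above 12.3, and the log2 difference was -0.10 (limma, SE 0.09, adjusted p = 0.494). Mff is the only one of the 10 genes near the targeted gene, 7.36 Mb from Des. Of the tested genes that start within 5 Mb of Des, 19 of 61 (31.1%) had an adjusted p under 0.05 (limma), beside 13.7% of all tested genes. Between 5 and 10 Mb, where Mff lies, it was 1 of 22. The part of this neighbourhood in the values of Mff was not tested.

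The Miro genes had the lowest levels per length of the 10. Rhot1 (ENSMUSG00000017686, chromosome 11, 80209019 to 80267907) had 10.98, 10.84, 10.88, 10.96 and 10.93 in knock-out and 11.10, 11.03, 10.78, 10.91 and 11.06 in wild-type mice. All knock-out values were inside the wild-type range, and the log2 difference was -0.05 (limma, SE 0.09, adjusted p = 0.717), and -0.10 without wild-type mouse 3. Rhot2 (ENSMUSG00000025733, chromosome 17, 25838457 to 25844851) had 10.53, 10.75, 10.74, 10.53 and 10.66 in knock-out and 10.59, 10.87, 11.51, 11.04 and 10.57 in wild-type mice. Wild-type mice 3 and 4 were the highest, and 2 knock-out mice were below all wild-type mice. Its log2 difference was -0.27 (limma, SE 0.16, adjusted p = 0.276), the largest of the 10 regardless of sign, and -0.13 without wild-type mouse 3. The gene models of Rhot2 and of Gm20683 on the same strand share 29.4% of the exon bases of Rhot2, and Gm20683 is listed at 0 in all mice. Reads of this stretch may therefore be missing from Rhot2, in which case its level is uncertain.

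Vdac1 had the highest level per length of the 10 genes and the smallest SD between wild-type mice. Vdac1 (ENSMUSG00000020402, chromosome 11, 52360860 to 52389397) had 15.66, 15.72, 15.84, 15.65 and 15.76 in knock-out and 15.69, 15.69, 15.81, 15.67 and 15.72 in wild-type mice. The log2 difference was 0.01 (limma, 95% interval -0.20 to 0.22, adjusted p = 0.948) and 0.04 without wild-type mouse 3, and the SD between mice was 0.08 in knock-out and 0.06 in wild-type muscle. Vdac2 (ENSMUSG00000021771, chromosome 14, 21825238 to 21845879), whose product is also known for binding pro-apoptotic BAK, had 13.69, 13.71, 13.77, 13.70 and 13.78 in knock-out mice. Wild-type mice had 13.81, 13.90, 14.42, 13.78 and 13.65. Wild-type mouse 3 was again the highest, and the log2 difference was -0.18 (limma, SE 0.13, adjusted p = 0.392) with and -0.05 without it.

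**Figure D2:**
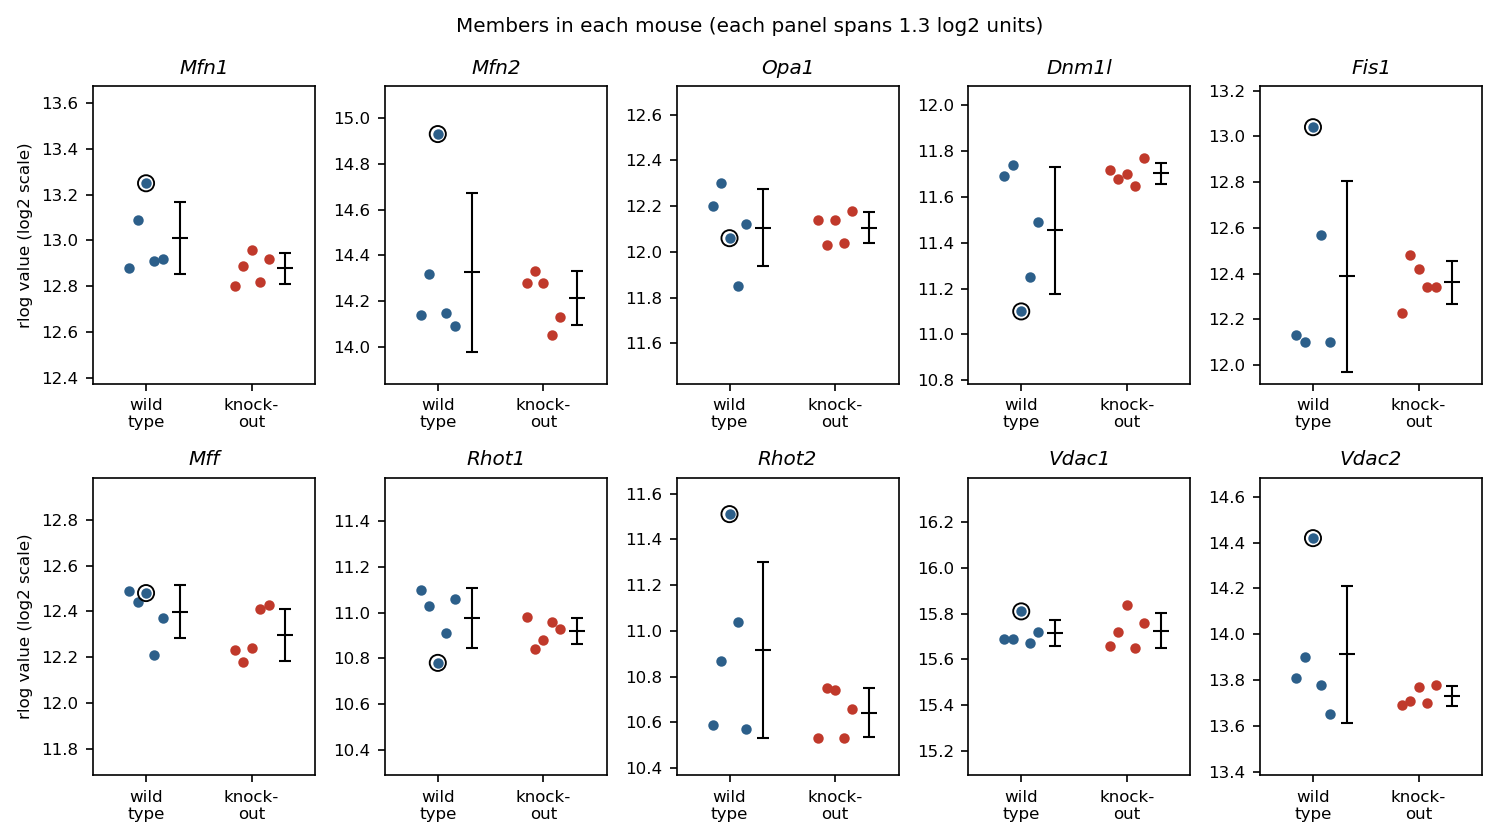
The rlog value (log2 scale) of each of the 10 genes in each mouse, with wild type in blue, knock-out in red and the mean ± SD of 5 mice beside the points. Wild-type mouse 3 is circled. Panels have the same height of 1.3 log2 units, and the knock-out points are the more tightly grouped in 9 of the 10 panels by unrounded SD, Vdac1 being the exception.

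Mice differed from each other more in wild-type than in knock-out muscle. The SD between the 5 knock-out mice was between 0.04 for Vdac2 and Dnm1l and 0.12 for Mfn2, with a median of 0.071 over the 10 genes. In wild-type mice it was between 0.06 for Vdac1 and 0.42 for Fis1, with a median of 0.224. The SD was larger in wild-type mice for 9 of the 10 genes, which was also the case for 82.9% of all tested genes. Without wild-type mouse 3 it was larger for 8 of the 10 genes and for 68.4% of all tested genes, and the median wild-type SD of the 10 genes was 0.112. This mouse had the highest value of all mice for 5 of the 10 genes and the lowest for 2, compared with 28.7% and 27% of all tested genes. Against the mean of the other wild-type mice it was higher by 0.82 for Fis1, 0.75 for Mfn2, 0.74 for Rhot2, 0.63 for Vdac2 and 0.30 for Mfn1. By contrast, its difference from them was -0.45 for Dnm1l and -0.25 for Rhot1.

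Since the scaling of a library cancels in a ratio of genes within a mouse, 5 log2 ratios between paired genes were compared. Only the Opa1 to Dnm1l ratio, the fusion GTPase over the fission GTPase, had genotypes without overlap. This was 1 of 5 ratios, beside 14.4% of single tested genes. It was 0.42, 0.35, 0.44, 0.39 and 0.41 in knock-out and 0.51, 0.56, 0.96, 0.60 and 0.62 in wild-type mice. Every knock-out mouse was thus below every wild-type mouse. The mean log2 ratio was 0.40 ± 0.03 (SD, n = 5) against 0.65 ± 0.18 (SD, n = 5), a difference of -0.25 (exact permutation test, two-sided, p = 0.00794, the smallest possible, and 0.0397 after Benjamini-Hochberg adjustment over 5 ratios). Without wild-type mouse 3 the difference was -0.18 at the same exact p of 0.00794. It did not pass in limma on the 5 ratios (adjusted p = 0.135) or in exact permutation tests without any single knock-out mouse (adjusted p = 0.0794 in each case). Taken alone, Opa1 had a difference of 0.00 and Dnm1l one of 0.25, and neither passed (limma, adjusted p = 0.193 for Dnm1l). The 5 ratios were chosen with earlier results of these data known.

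None of the other ratios passed. The Vdac1 to Vdac2 ratio was 2.0 ± 0.05 (SD, n = 5) and 1.80 ± 0.25 (SD, n = 5) in the knock-out and wild-type mice (exact permutation test, p = 0.0873, adjusted p = 0.218). In this ratio wild-type mouse 3 was lowest at 1.39, and the other wild-type mice ranged from 1.79 to 2.07. The difference of 0.19 was 0.09 without wild-type mouse 3 (exact permutation test, adjusted p = 0.265) and 0.26 without wild-type mouse 5 (adjusted p = 0.0198), the only mouse whose removal let it pass. The difference was 0.22 for Rhot1 to Rhot2 (exact permutation test, p = 0.476), -0.08 for Mff to Fis1 (p = 0.706) and -0.02 for Mfn1 to Mfn2 (p = 0.857). For these 3 ratios the ranges of the genotypes overlapped, and the adjusted exact p was between 0.794 and 0.857. These differences became 0.02, -0.22 and -0.11 without wild-type mouse 3, and none passed (adjusted exact p = 0.265 to 0.929).

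**Figure D3:**
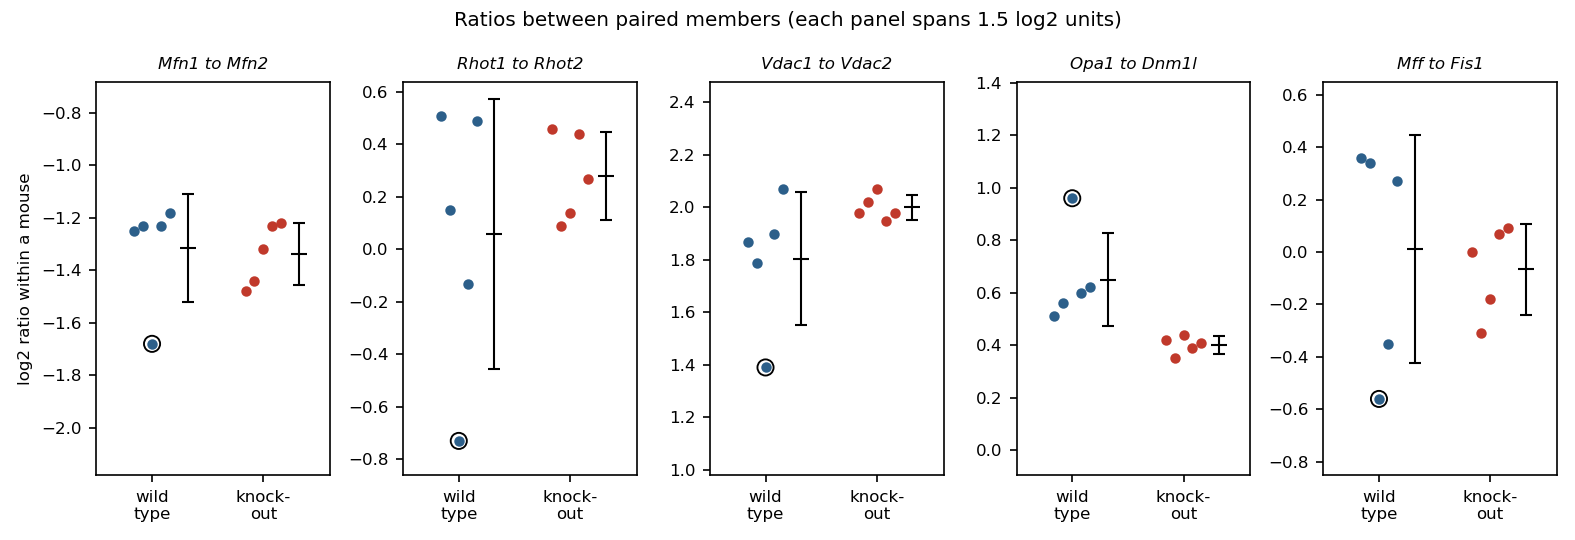
Log2 ratio between paired genes within each mouse, with wild type in blue, knock-out in red, the mean ± SD of 5 mice beside the points and wild-type mouse 3 circled. Panels have the same height of 1.5 log2 units, and Opa1 to Dnm1l is the only panel without overlap, with 0.35 to 0.44 in knock-out and 0.51 to 0.96 in wild-type mice.

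To compare levels between genes, the log2 of the exon length in kb was subtracted from the rlog value. On this scale per length Vdac1 was first with a mean level of 14.33 over the 10 mice, above 99.5% of tested genes. It was followed by Mfn2 (11.89), Fis1 (11.60) and Vdac2 (11.57), of which neighbours did not keep their order in all mice. Mfn1 came next at 10.33, and its level was below that of Vdac2 and above that of Dnm1l in 10 of 10 mice. Dnm1l (9.20), Opa1 (9.13) and Mff (9.06) were within the spread between mice of each other. Rhot2 (8.63) and Rhot1 (8.06) were last, and with this length Rhot2 was above Rhot1 in 10 of 10 mice. Within the mitofusins, the per-length level of Mfn2 thus exceeded that of Mfn1, and within the channels that of Vdac1 exceeded Vdac2. With the longest transcript in place of all exon bases, Vdac2 (12.79) and Fis1 (12.45) moved above Mfn2 (12.15), and Mff (10.38) moved above Dnm1l (9.59) and Opa1 (9.47), so the order of these genes depends on the length used. Rhot2 (9.10) and Rhot1 (8.86) then lay closer together, and their order did not hold in every mouse.

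**Figure D4:**
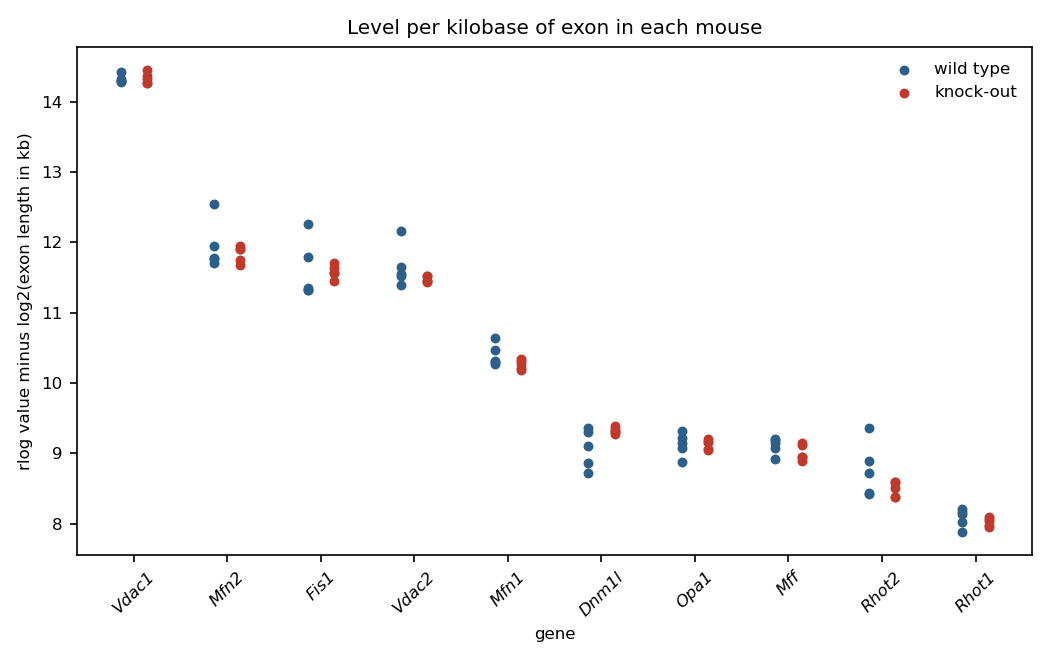
Level per length of the 10 genes, as the rlog value minus log2 of the exon length in kb, with 1 point per mouse, wild type in blue and knock-out in red, ordered by the mean over 10 mice. Vdac1 is 2.44 log2 units above the next gene, and the genotypes overlap for every gene.

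The tested genes whose values followed Dnm1l most closely over the 10 mice were Fam126b (Pearson r = 0.987), Magt1 (r = 0.983) and Usp33 (r = 0.981), with Spearman's rho of 0.891, 0.867 and 0.745. After leaving out wild-type mice 3 and 4, which were farthest from the median of Dnm1l, r was 0.900, 0.831 and 0.821 over 8 mice. These mice share their libraries across genes, and none of the 3 genes had an adjusted p under 0.05 (limma).

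The wider machinery was described with 7 lists of 78 further genes, of which 76 were tested. Of these, 3 passed (3.95%), with 2 being increased and 1 being decreased in knock-out muscle (beside 13.7% of all tested genes), and 7 of 76 had genotypes without overlap (beside 14.4%). An unadjusted limma p under 0.05 was found for 16 of 76 (beside 27.6%). Without wild-type mouse 3 the number that passed was 10, with 7 higher and 3 lower, among them the 3 that passed with all mice (beside 17.5% of all tested genes). It was 1 without knock-out mouse 2 or without knock-out mouse 4. The strongest was Tspo, an outer membrane protein that binds cholesterol and is also abundant in macrophages. It had 10.32, 10.31, 10.36, 10.47 and 10.27 in knock-out and 9.47, 9.49, 9.90, 10.16 and 9.35 in wild-type mice. All knock-out mice were above all wild-type mice, and the log2 difference was 0.67 (limma, SE 0.14, adjusted p = 0.00606). Of 8 macrophage markers, 0 passed, and their median difference was 0.03, and -0.03 without wild-type mouse 3. Of 7 fibroblast markers, 4 were higher in knock-out muscle (beside 7.7% of all tested genes), at a median difference of 0.50. The part of any cell type in the Tspo difference was not tested.

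**Figure D5:**
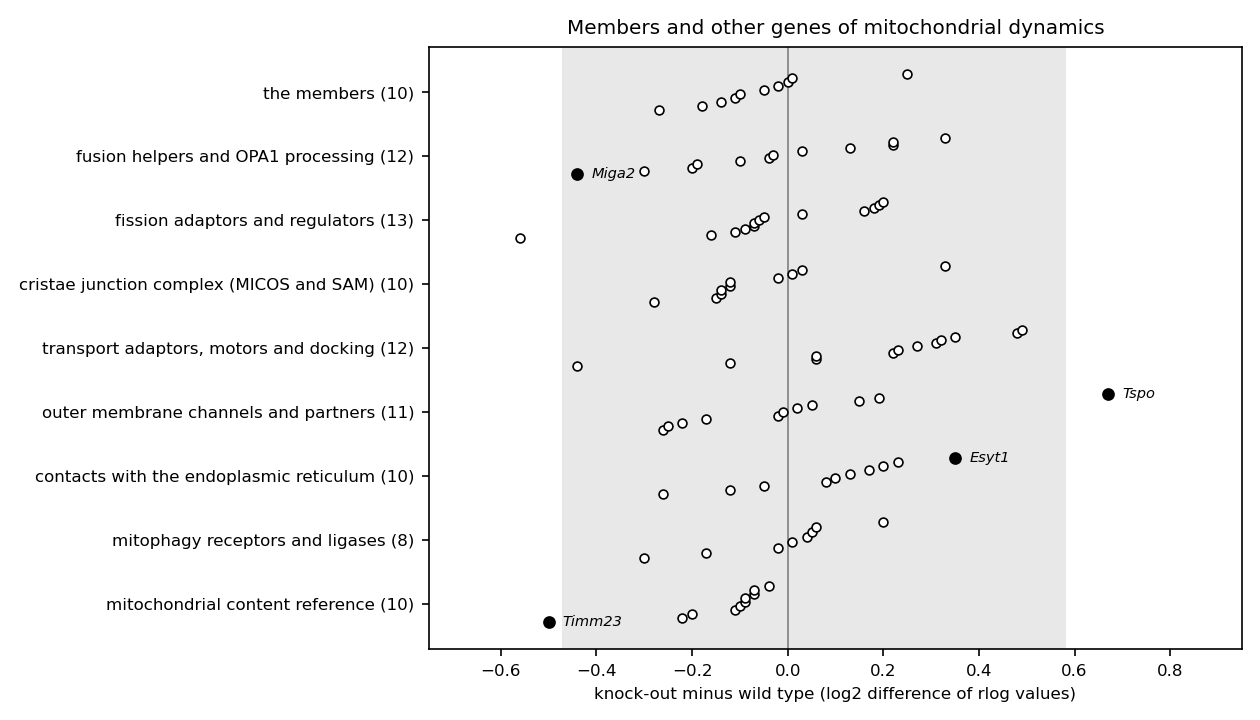
Log2 difference (knock-out minus wild type, rlog values) of every tested gene in the 10 members and the other lists, with the number tested in brackets. Filled points passed an adjusted p under 0.05 (limma) and are named, open points did not, and the grey band runs from the 5th to the 95th percentile of all tested genes, -0.47 to 0.58. Tspo, Esyt1, Miga2 and Timm23 are the filled points.

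Among helpers of fusion and OPA1 processing, 1 of 12 tested genes passed. This was Miga2, which encodes an outer membrane protein that promotes fusion, with 9.35 ± 0.11 (SD, n = 5) in mice lacking desmin, 9.79 ± 0.23 (SD, n = 5) in wild-type mice and a difference of -0.44 (limma, adjusted p = 0.0215). In 4 of 5 knock-out mice it was below all wild-type mice, and it missed the threshold without knock-out mouse 2, 3 or 4 (adjusted p = 0.0533 to 0.0633). Its paralog Miga1 had a difference of the other sign, 0.33, with all knock-out above all wild-type values (limma, adjusted p = 0.0688). It passed without wild-type mouse 3 (0.23, adjusted p = 0.0493). Slc25a46, an outer membrane protein tied to both fusion and fission, had 0.22 (adjusted p = 0.209).

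Of 13 tested fission adaptors and regulators none passed with all mice. Gdap1, an outer membrane protein whose human gene is mutated in an inherited neuropathy, had 9.78, 9.97, 9.98, 9.84 and 9.95 in knock-out mice. In wild-type mice it had 11.06, 10.52, 9.35, 10.47 and 10.93, so that 4 wild-type mice were above and wild-type mouse 3 below all knock-out mice. The log2 difference was -0.56 (limma, adjusted p = 0.156) with this mouse and -0.84 (adjusted p = 2.63e-04) without it. Mief1, an adaptor that recruits DRP1, had a difference of 0.18 (adjusted p = 0.228) and Mtfr1 0.19 (adjusted p = 0.274).

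For the cristae junction complex, 0 of 10 genes passed, and its core member Immt had a difference of -0.12 (limma, adjusted p = 0.412). Chchd3 had -0.28 (adjusted p = 0.341), which was -0.08 without wild-type mouse 3, and Mtx2, an import protein of the outer membrane, 0.33 with all knock-out above all wild-type values (adjusted p = 0.0731). For transport and docking, 0 of 12 passed, at a median difference of 0.25. Kif5b, the kinesin heavy chain that Miro and its adaptors connect to mitochondria, had 12.55 ± 0.06 (SD, n = 5) in mice lacking desmin and 12.08 ± 0.45 (SD, n = 5) in wild-type mice. All knock-out mice were above all wild-type mice by unrounded values, but its difference of 0.48 did not pass (adjusted p = 0.0847). Without wild-type mouse 3, the lowest at 11.44, it was 0.32 (adjusted p = 0.0835), with sample weights 0.21 (adjusted p = 0.0693) and with the Y-linked covariate 0.23 (adjusted p = 0.0697). It passed without wild-type mouse 1 (0.58, adjusted p = 0.0373) and with GC and length trends removed (0.37, adjusted p = 0.0176). Armc10 had 0.32, with all knock-out above all wild-type values (adjusted p = 0.0916), and the dynein light chain gene Dynll1 0.35 (adjusted p = 0.126). Both passed without wild-type mouse 3, at 0.37 (adjusted p = 0.0425) and 0.46 (adjusted p = 0.00969; all limma).

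Of 11 outer membrane channels and partners Tspo alone passed. Vdac3, the remaining VDAC gene, had 13.43, 13.42, 13.49, 13.47 and 13.53 in knock-out and 13.64, 13.63, 14.03, 13.64 and 13.69 in wild-type mice. The genotypes did not overlap, but the log2 difference of -0.26 missed the threshold (limma, adjusted p = 0.0963) and was -0.19 without wild-type mouse 3 (adjusted p = 0.0498). Tomm22 had 0.15 (adjusted p = 0.277). Of 10 genes for contacts with the endoplasmic reticulum, Esyt1, a membrane tether, passed with 10.38 ± 0.10 (SD, n = 5) against 10.03 ± 0.14 (SD, n = 5), a difference of 0.35 (limma, adjusted p = 0.0215). All knock-out mice were above all wild-type mice. Esyt1 missed the threshold after median centring (adjusted p = 0.0658) and with the replicate number as a block (adjusted p = 0.0669). It also missed it without knock-out mouse 1, 2 or 4 or wild-type mouse 5 (adjusted p = 0.0507 to 0.0625). Tmx1 had 0.23 (adjusted p = 0.218) and Pacs2 -0.26 (adjusted p = 0.235), which was -0.11 without wild-type mouse 3. Of 8 mitophagy genes none passed, with -0.30 for Fkbp8 (adjusted p = 0.195; -0.15 without wild-type mouse 3) and -0.17 for Usp15 (adjusted p = 0.373; all limma).

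As a reference for mitochondrial content, 10 nuclear genes of the matrix, the inner membrane and import were set beside these lists. Cs, which encodes citrate synthase, had 14.96 ± 0.07 (SD, n = 5) in mice lacking desmin and 15.03 ± 0.14 (SD, n = 5) in wild-type mice, and the 95% interval of the difference of -0.07 was -0.29 to 0.15 (limma, adjusted p = 0.678). Timm23, a subunit of the inner membrane import channel, was the only one of the 10 that passed. It was lower by a log2 difference of -0.50 (adjusted p = 0.0448), with 4 of 5 knock-out mice below all wild-type mice, and it lost this call in leave-one-out fits without any 1 mouse other than wild-type mouse 3 or 4. Atp5f1b had -0.20 (adjusted p = 0.332) and Cox4i1 -0.22 (adjusted p = 0.436), which were -0.13 and -0.06 without wild-type mouse 3. In RNA from whole muscle, fewer cells of a type and less RNA per cell cannot be told apart.

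Markers of fiber and cell types moved between the same samples. Among all tested genes, 7.7% were higher and 5.99% lower in knock-out muscle at an adjusted p under 0.05 (limma). Of 7 fast fiber markers 3 were lower, led by Mybpc2 (-1.05), and their summed level was 21.62 to 21.87 in knock-out and 22.03 to 22.87 in wild-type mice. Of 7 slow fiber markers 2 were higher, led by Tnnt1 (1.70), and 1 lower (summed level 14.95 to 15.48 and 14.40 to 15.50). Of 7 fibroblast markers 4 were higher, with 0.64 for Col1a2, which had the smallest adjusted p, and 0.99 for Lum, the largest difference (summed level 13.90 to 14.50 and 13.45 to 14.39). Of 6 endothelial markers 4 were lower, led by Flt1 (-0.59; summed level 11.88 to 12.30 and 12.39 to 12.67), and of 5 erythroid markers 2 were lower, led by Alas2 (-1.0; summed level 11.49 to 12.09 and 12.00 to 13.37). None of the 7 muscle fiber, 8 macrophage, 5 adipocyte, 5 Schwann cell and 4 smooth muscle markers passed. Of those with the smallest adjusted p in these lists, 4 had differences of -0.59 (Ckm), -0.18 (Csf1r), 0.21 (Lep) and -0.36 (Myh11). The differences of Csf1r and Myh11 were -0.12 and -0.23 without wild-type mouse 3. The number of markers that passed was then 1 for muscle fibers (Mb, 0.38, limma adjusted p = 0.021), 4 for slow fibers, 3 each for fast fibers, fibroblasts, endothelium and erythroid cells, and 0 for the other lists. Without this mouse 17.5% of all tested genes passed. No marker was at 0 in all mice. The part of these shifts in the values of the mitochondrial genes was not tested.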

How the data were processed

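RNA-seq of calf muscle (labelled gastrocnemius) from 10 mice was analysed. According to the submitters' processing notes, the tools were cutadapt 2.5, STAR 2.5.4a, featureCounts of Subread 1.6.1 and DESeq2 on GRCm38. The authors deposited rlog values on a log2 scale. Settings of rlog and of strand in the counting are not given in the sources used here. No counts were used here, so depth and counting error are unknown, and the spread between 5 mice sets the precision. A limit of log2(10) on the mean over all mice selected the genes compared by limma 3.58.1 under R 4.3.3 (eBayes with a trend, two-sided, Benjamini-Hochberg adjustment over 14289 genes). The script was tested on simulated data. Symbols, positions and exon lengths came from GENCODE M21 (GRCm38) and were found for 54165 of 54232 genes. Ratios were tested with exact permutation tests.

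The members, lists, tests and the rule for named genes were chosen with earlier results of these data known. The rule named the members and Des, 3 genes of smallest adjusted p in each of 7 mitochondrial lists and the content list plus Cs, 1 in each of 10 marker lists and 3 genes following Dnm1l. Of the genes so named, 2 are not reported here. The marker lists were for muscle, slow and fast fibers, macrophages, fibroblasts, endothelium, adipocytes, Schwann cells, smooth muscle and erythroid cells. Alternatives were other limits on expression, quantile normalization, sample weights, median centring, 1 prior variance for all genes, a replicate block, Y-linked transcripts as a covariate, leaving out each mouse and a stricter threshold. Sample weights gave wild-type mouse 3 the lowest weight (0.100, other mice 0.275 to 4.214), so they partly repeat leaving it out. The covariate was the mean of 4 Y-linked transcripts in each mouse. Removal of trends on GC content and length, and levels by longest transcript, were chosen after seeing the data.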

Additional observations from a re-analysis of the deposited data

Results flagged for a closer look

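The 10 genes and 5 ratios gave 30 sets of 5 mice, and in 3 of them 1 mouse lay well outside the rest. About 1.5 such sets are expected by chance, and the mouse was wild-type mouse 3 each time. Its Mfn2 value of 14.93 lay above the other wild-type mice, which ranged from 14.09 to 14.32. Its Mfn1 to Mfn2 log2 ratio of -1.68 was below theirs, which lay between -1.25 and -1.18, and without it the ratio differed between the genotypes by -0.11 (exact permutation test, adjusted p = 0.265). Its Opa1 to Dnm1l log2 ratio of 0.96 was above theirs, which lay between 0.51 and 0.62.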

How the results depend on the processing

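Over 20 alternatives none of the 10 genes passed, with 0.0565 as the lowest adjusted p (Fis1, sample weights, limma). Of 200 values, 179 kept their direction, and 21, from 4 genes and none larger than 0.20 regardless of sign, did not. Quantile normalization gave 0.05 for Mfn2, 0.07 for Fis1 and 0.02 for Cs, and median centring -0.04 for Opa1 and -0.03 for Vdac1. Sample weights gave -0.11 for Opa1 and 0.20 for Fis1, the Y-linked covariate 0.04 for Mfn2, -0.07 for Opa1 and 0.19 for Fis1, and removal of GC and length trends -0.08 for Opa1 and 0.04 for Fis1. Leaving out each mouse gave -0.17 to 0.04 for Mfn2, -0.06 to 0.05 for Opa1, -0.10 to 0.14 for Fis1, -0.02 to 0.04 for Vdac1, -0.11 to 0.01 for the Mfn1 to Mfn2 ratio and -0.22 to 0.01 for the Mff to Fis1 ratio.

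Of the 76 wider genes, 3 passed, but 5 with quantile normalization, 19 with sample weights, 6 with the Y-linked covariate, 6 without GC and length trends, 1 at an adjusted p under 0.01 and 1 to 10 with each mouse left out (limma). Of the 10 content genes, 1 passed, but 0 without a limit on expression, with a single prior variance, with the replicate block, with the Y-linked covariate or at an adjusted p under 0.01, 3 with sample weights and 0 to 1 with each mouse left out. Of the 5 ratios 1 passed, but 0 in limma, 2 without GC and length trends (Opa1 to Dnm1l and Mff to Fis1, the latter at -0.29) and 0 to 2 with each mouse left out, 2 being reached without wild-type mouse 5. The causes were not tested. With the replicate number as a block 0 ratios passed, since 5 pairs allow no exact p below 0.0625. Deviations from the genotype means showed no clear correlation between same-numbered mice (-0.219 to 0.0673 in 5 pairs). Of 5 knock-out mice, 0 correlated best with their own number, but 5 pairs cannot settle whether mice were paired. With the replicate block none of the 10 genes passed either. rlog values hold no depth, so shrinkage cannot be separated from small differences.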
